A study of Mus musculus with 8 samples.

Results

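The JmjC histone lysine demethylases are enzymes that remove methyl groups from lysines of histone H3. Described here are 10 of them, Kdm2a, Kdm2b, Kdm3a, Kdm3b, Kdm4a, Kdm4b, Kdm4c, Kdm5a, Kdm5b and Kdm6b, out of 17589 genes in the deposited table. They were chosen by gene symbol, as a list drawn up with results of the control against knockout contrast already known, so their differences between the groups are given as a description and support nothing further. The table lists 43 transcript entries for these genes, and gene levels are sums over the entries of a gene identifier. Spermatogonia, the germ cells from which sperm production starts, were sorted from testes at 6 days after birth. All mice had a C57BL/6 background and the GOF/deltaPE-Oct4/GFP reporter, whose GFP was the mark used for sorting. The 4 control libraries are labelled only as control, and the 4 knockout libraries as KDM1A KO, a conditional deletion of Kdm1a with no Cre driver or deleted exons given in the sources used here. The labels do not say that the libraries of a group came from separate animals, so every interval and p-value below measures only the spread between these libraries.

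KDM1A, the enzyme removed in these mice, uses a flavin and acts on H3K4. JmjC enzymes work by another chemistry, with iron, oxygen and 2-oxoglutarate, and many of them can also remove methyl groups from trimethylated lysines. Their subfamilies differ in the lysine they act on: KDM2 enzymes act on H3K36, KDM3 enzymes on H3K9, KDM4 enzymes on H3K9 and H3K36, KDM5 enzymes on H3K4 and KDM6 enzymes on H3K27. H3K4 methylation marks active promoters, H3K9 and H3K27 methylation mark silenced chromatin, and H3K36 methylation lies over transcribed gene bodies. In the testis the family is best known through KDM3A, which is needed late in sperm formation.

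The label of the knockout was checked first. Kdm1a was at 53.7, 54.0, 92.0 and 48.1 FPKM (fragments divided by transcript length and by library size) in control libraries 1 to 4, and at 14.2, 14.1, 17.3 and 14.9 FPKM in knockout libraries 1 to 4, all below the controls; libraries are numbered by replicate. Germ cell markers summed to 970 to 1158 FPKM in control libraries and 1013 to 1188 FPKM in knockout libraries, with 6 of 6 listed; among them Zbtb16 and Sall4 were called lower and Tex101 higher. Among somatic markers, the summed Sertoli markers (8 of 8 listed) ranged from 12.3 to 35.2 FPKM in control libraries and from 13.7 to 42.6 in knockout libraries. The sums were 35.2, 12.3, 13.1 and 14.9 FPKM in control libraries 1 to 4. In knockout libraries 1 to 4 they were 34.7, 13.7, 42.6 and 36.7 FPKM. Of the 7 Sertoli markers tested 0 were called, with a median log2 change of 0.53. Peritubular and stromal markers (6 of 6) were at 33.5 to 35.2 and 22.2 to 23.5 FPKM, endothelial markers (4 of 5) at 3.98 to 5.62 and 11.2 to 12.1 FPKM, and erythroid markers (2 of 5) at 0.282 to 0.760 and 1.60 to 2.50 FPKM. The lower peritubular and stromal sum came from Col1a1, at a mean of 28.7 FPKM in control and 15.6 FPKM in knockout libraries, while Acta2 and Pdgfra were not called and Pdgfra and Des had higher means in the knockout. Pecam1 and Tek carried the higher endothelial sum, with control means of 1.39 and 1.05 FPKM and knockout means of 4.55 and 4.13 FPKM. Cdh5 had no call (control mean 1.86, knockout mean 2.08 FPKM), and Kdr, too low to be tested, averaged 0.811 and 0.833 FPKM. The higher erythroid sum came from Alas2, with means of 0.289 FPKM in control and 1.65 FPKM in knockout libraries. Mean Hbb-b1 levels were 0.268 and 0.234 FPKM. Of the Leydig and macrophage lists 1 of 6 markers each was matched, at no more than 2.36 FPKM in any library, and no matched marker was at 0 in all 8 libraries. The part of these marker shifts in the changes below was not tested, and in bulk RNA fewer cells of a type and less RNA per cell cannot be told apart. Knockout replicate 2 stood apart: 1642 transcript entries were listed at 0 there, against 506 to 734 in the other libraries, and its genes over 4000 bases lay at a median of -0.22 on the log2 scale from the mean of the knockout libraries.

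In the values as deposited, 7 of the 10 demethylase genes were called lower in the knockout, 0 were called higher and 3 were not called. The calls come from limma on log2(FPKM + 1) over the 13483 genes that averaged at least 1 FPKM, at a Benjamini-Hochberg adjusted p under 0.05, and across all those genes 12.1% were called lower and 25.3% higher. The genes called lower were Kdm2b, Kdm3a, Kdm3b, Kdm4a, Kdm4b, Kdm5b and Kdm6b, and those not called were Kdm2a, Kdm4c and Kdm5a. In 6 of the 10 all 4 knockout libraries lay below all 4 controls, a pattern seen in 12.5% of all genes tested, and in 0 they lay above, against 26.1% of all genes. The median log2 change, knockout minus control, was -0.42 over the 10 genes and 0.09 over all genes tested. These directions depend on how libraries are scaled, because Mir5105 alone made up 61.3% to 77.1% of all FPKM in control libraries and 29.4% to 52.7% in knockout libraries. With every library scaled to an equal FPKM total the median of all genes moved to 0.74, and 0 of the 10 genes were called lower and 2, Kdm4c and Kdm5a, higher, where 1.07% of all genes were called lower and 71.2% higher. Relative to that median the 10 genes lay 0.46 lower, against 0.52 lower in the values as deposited, and 9 of the 10 were below the median of all genes under either scaling. After median-ratio scaling the same number of genes, 7, were called lower and 0 higher, where 20.6% of all genes were called lower and 17.7% higher. With small RNAs such as Mir5105 removed before totals were made equal, the median of all genes was 0.01 and that of the 10 genes -0.52. The same 7 genes as in the deposited values were called lower there. The share of all genes called at that setting is not given here. All directions below are those of the deposited values unless a scaling is named.

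**Figure D1:**
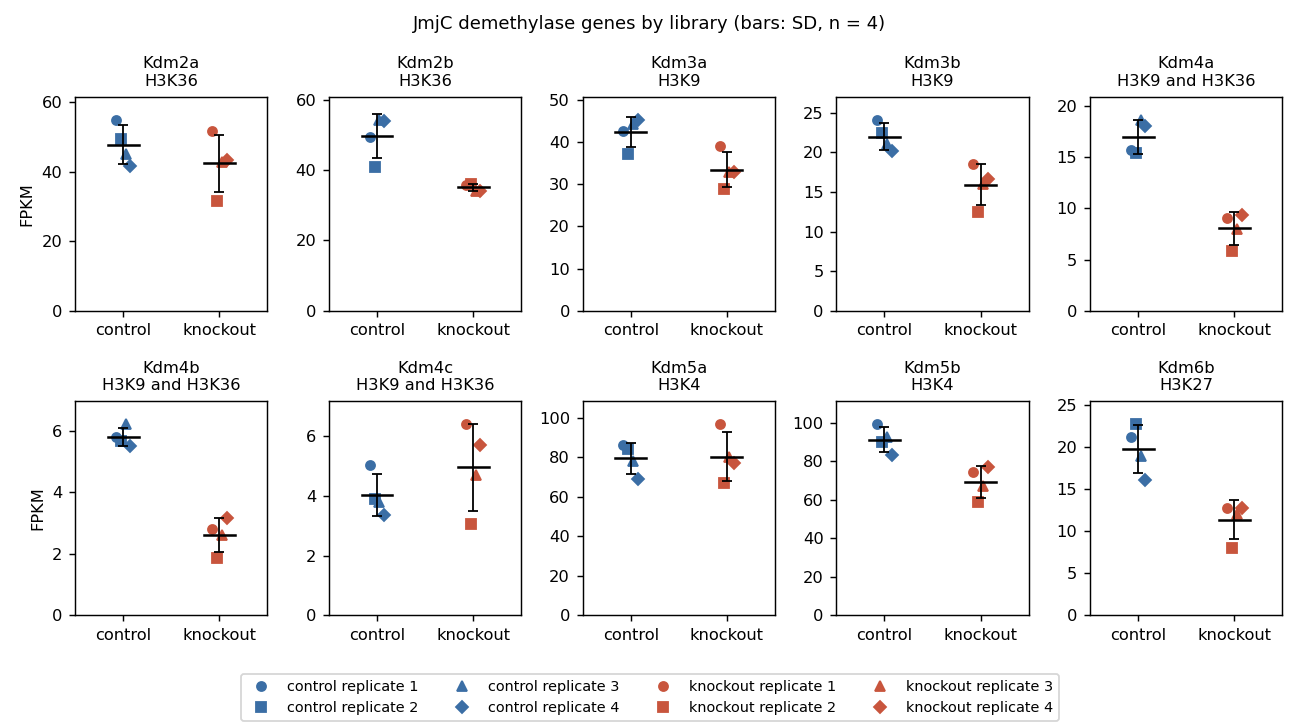
FPKM of the 10 demethylase genes in each library, with controls in blue, knockouts in red, a marker shape for each replicate number, horizontal lines at the means and error bars of 1 SD (n = 4 in each group). Kdm4a, Kdm4b, Kdm6b, Kdm2b, Kdm3b and Kdm5b have every knockout value below every control value as deposited, and Kdm2a, Kdm3a, Kdm4c and Kdm5a have groups that overlap; with equal FPKM totals the log2 changes of Kdm2a, Kdm2b, Kdm3a, Kdm3b and Kdm5b have the opposite sign.

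KDM2A and KDM2B remove methyl groups from H3K36 and carry a CXXC zinc finger that binds unmethylated CpG DNA. KDM2B brings a Polycomb complex that ubiquitinates histone H2A to CpG islands. Kdm2b (ENSMUSG00000029475, mm10 chromosome 5, 122870665 to 122989823, minus strand) showed 49.4, 40.9, 54.4 and 54.0 FPKM in control libraries 1 to 4, and 35.9, 36.1, 34.2 and 34.1 in knockout libraries 1 to 4. The knockout values lay close together and below every control, and the means were 49.7 ± 6.25 and 35.1 ± 1.08 (SD, n = 4 each). The log2 change of the gene sum was -0.48 (95% interval -0.70 to -0.26). Kdm2a (ENSMUSG00000054611, chromosome 19, 4314419 to 4398285, minus strand) was at 55.0, 49.3, 45.2 and 41.7 FPKM in control libraries and 51.7, 31.6, 42.9 and 43.3 FPKM in knockout libraries. Its groups overlapped, with knockout replicate 2 the lowest of the 8 libraries, and the log2 change was -0.18 (95% interval -0.51 to 0.15).

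Transcripts of Kdm2b begin in separate places, and those from the upstream starts differed most between the groups. In GENCODE M21, Kdm2b-202, Kdm2b-203 and Kdm2b-204 begin at the upstream end of the gene, at 122989099, 122988533 and 122989306, have 23 exons each and hold 96.0% to 100% of the longest coding sequence. Kdm2b-201 begins inside the gene at 122900355, has 12 exons, and its coding sequence starts at base 1654 of the 3927 bases of the longest. The short protein of an internal Kdm2b start is known to lack the JmjC domain, so it is no demethylase, and to keep the CXXC zinc finger. The RefSeq promoter table (GRCm38.p6, the same coordinates as mm10) holds windows of 300 bases, from 250 before a start to 50 from it on, and those of the internal start and of the upstream region are shown because the entries from the upstream starts lay lower in the knockout and the internal start is the one they are set against. The windows are chr5:122900301-122900600 for the internal start, and chr5:122988458-122988757 and chr5:122989050-122989349 for the proximal and distal upstream starts, all on the minus strand. Each is printed 5′ to 3′ in lower case, with the letters of a GC box (GGGCGG, or CCGCCC on the other strand) and of an E-box (CACGTG) in capitals.
Kdm2b internal start: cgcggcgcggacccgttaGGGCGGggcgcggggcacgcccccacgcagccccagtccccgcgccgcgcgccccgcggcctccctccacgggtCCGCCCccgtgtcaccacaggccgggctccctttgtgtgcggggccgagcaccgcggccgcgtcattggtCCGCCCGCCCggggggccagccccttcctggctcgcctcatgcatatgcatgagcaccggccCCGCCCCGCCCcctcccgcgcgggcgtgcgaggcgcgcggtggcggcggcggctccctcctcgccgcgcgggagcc
Kdm2b upstream start, proximal: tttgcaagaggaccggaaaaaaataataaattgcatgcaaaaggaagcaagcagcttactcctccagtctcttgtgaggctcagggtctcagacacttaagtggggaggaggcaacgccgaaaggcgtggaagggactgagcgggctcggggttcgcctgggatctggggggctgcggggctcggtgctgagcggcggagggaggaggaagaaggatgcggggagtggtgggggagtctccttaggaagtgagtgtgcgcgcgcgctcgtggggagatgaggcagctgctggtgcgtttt
Kdm2b upstream start, distal: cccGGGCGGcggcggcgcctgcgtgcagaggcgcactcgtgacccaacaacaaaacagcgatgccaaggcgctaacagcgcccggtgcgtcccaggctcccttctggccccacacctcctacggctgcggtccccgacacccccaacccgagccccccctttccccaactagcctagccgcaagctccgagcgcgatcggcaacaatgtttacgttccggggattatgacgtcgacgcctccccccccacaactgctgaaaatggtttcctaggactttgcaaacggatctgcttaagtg
The window of the internal start holds 49 CG pairs, more than 99.0% of the 32851 windows in the table, whose median is 7, and 6 GC box matches. The proximal and distal upstream windows hold 18 and 28 CG pairs and 0 and 1 GC box matches. Of all windows 35.7% hold a GC box and 7.15% an E-box, and a match is a description of letters only.

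The upstream-start entries of Kdm2b were lower in every knockout library. Their summed FPKM was 11.3, 6.71, 11.3 and 11.6 in control libraries 1 to 4, and 4.14, 2.37, 2.48 and 2.94 in knockout libraries 1 to 4. Every knockout library lay below every control, and the mean went from 10.2 ± 2.34 to 2.98 ± 0.810 (SD, n = 4 each), 3.43-fold lower. The internal-start entry was at 37.1, 32.5, 41.6 and 41.8 FPKM in control libraries and 29.8, 33.6, 31.3 and 30.7 FPKM in knockout libraries. Its groups overlapped, the means were 38.2 ± 4.39 and 31.4 ± 1.61, and it was not called. The share of the upstream start in the sum of these entries, which does not depend on library scaling, was 23.4%, 17.1%, 21.3% and 21.7% in control libraries and 12.2%, 6.58%, 7.33% and 8.73% in knockout libraries. Every knockout share was thus below the lowest control share. The upstream entries are 4999 to 5180 bases long and Kdm2b-201 is 3532 bases long. The share is not corrected for each library's trend with transcript length, and knockout replicate 2 had the lowest share.

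Of single entries, Kdm2b-203 had a log2 change of -1.13 (SE 0.20) and Kdm2b-202 of -1.58 (SE 0.26), and both were called lower. Kdm2b-202, the longest coding entry, was at 1.65 to 3.36 FPKM in the controls, at 1.01 in knockout replicate 1 and at no more than 0.120 in the other knockouts. Over the whole family 29 of the 43 entries had a mean of at least 1 FPKM, and 9 of them were called lower, 1 higher and 19 neither, where 5.93% of all 26612 entries tested were called lower and 12.0% higher. By limma's diffSplice, which sets each entry against the others of its gene, Kdm2b-201 had gained relative to the rest (log2 difference 1.08) and was the only 1 of 27 family entries called, where 2.10% of all 19076 entries were. A test of the ratio of an entry to its gene's other entries, with a spread of its own for each entry, gave a similar log2 difference of 1.22 (SE 0.24) but called 0 of the 19076 entries, of which 2549 had an unadjusted p under 0.05 (limma). The diffSplice call was also lost when any of 6 of the 8 libraries was left out. The upstream entries share exon positions with Gm44574 on the same strand and all coding entries with Rnf34 on the other strand. The library kit keeps strand; the sources used here do not say whether counting used it.

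**Figure D2:**
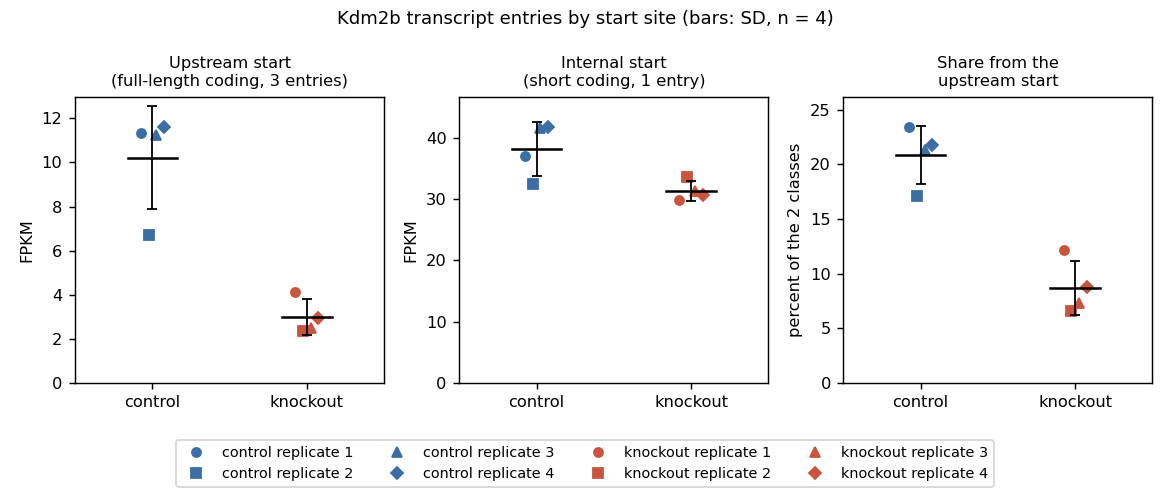
Summed FPKM of the 3 upstream-start coding entries of Kdm2b, FPKM of the internal-start entry, and the upstream share of their sum in percent, by library, with means and SD (n = 4 in each group). The upstream sum and share lie apart, with shares of 17.1% to 23.4% in control libraries and 6.58% to 12.2% in knockout libraries, while the internal-start entry overlaps between groups. The share is not corrected for each library's trend with transcript length.

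Kdm2a entries gave a single call. The full-length entry Kdm2a-201 was at 18.8 to 21.03 FPKM in control libraries and 20.0 to 22.4 FPKM in knockout libraries, and Kdm2a-202, of the same coding length, at 10.7 to 17.8 and 1.25 to 15.1 FPKM, with the lowest value in knockout replicate 2. Kdm2a-208, which holds 1.2% of the longest coding sequence, was the family's entry called higher: it was at 3.54 to 3.85 FPKM in control libraries and 4.19 to 7.43 FPKM in knockout libraries (log2 change 0.54, SE 0.16). No entry of the family was called higher after median-ratio scaling, or when any of 7 of the 8 libraries was left out.

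The genes that work with KDM2B in its Polycomb complex were read from the same fit. Of 9 partners tested, 2 were called higher, 0 lower and 7 neither, with a median log2 change of 0.01. The share called higher was near the 25.3% over all genes, of which 12.1% were called lower. Rnf2, the ubiquitin ligase subunit, was at 23.5 to 28.8 FPKM in control libraries and 30.2 to 38.1 FPKM in knockout libraries (log2 change 0.35, adjusted p = 0.0204, limma). Yaf2, a subunit that stands in for RYBP, was at 14.0 to 15.6 and 16.2 to 18.9 FPKM (log2 change 0.26, adjusted p = 0.0266, limma). Neither was called after median-ratio scaling, where their log2 changes were 0.20 and 0.12. Pcgf1, which links KDM2B to the complex, had means of 5.33 ± 1.27 and 5.90 ± 1.32 FPKM (SD, n = 4 each) and was not called.

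KDM3A and KDM3B remove methyl groups from H3K9, and KDM3A acts on promoters of genes that package sperm DNA. Kdm3a (ENSMUSG00000053470, chromosome 6, 71588972 to 71632990, minus strand) was at 42.6, 37.3, 44.3 and 45.3 FPKM in control libraries 1 to 4 and at 39.0, 29.0, 32.8 and 32.9 FPKM in knockout libraries 1 to 4. Knockout replicate 1 lay above control replicate 2, so the groups overlapped, and the log2 change was -0.34 (95% interval -0.57 to -0.10). This call was lost when control replicate 1, 3 or 4 or knockout replicate 3 or 4 was left out, with log2 changes of -0.30 to -0.33, and after removal of each library's trend with transcript length, at -0.20. Kdm3b (ENSMUSG00000038773, chromosome 18, 34777047 to 34838660, plus strand) was at 24.1, 22.4, 21.03 and 20.2 FPKM in control libraries and 18.5, 12.5, 15.99 and 16.7 FPKM in knockout libraries. All knockout values lay below the controls, with a log2 change of -0.45 (95% interval -0.72 to -0.18). Its exons overlap Gm26538 on the other strand.

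Of the enzymes that add H3K9 methylation, 7 were tested, 2 were called lower and 1 higher, where 12.1% and 25.3% of all genes were. Ehmt2, which encodes the G9a methyltransferase, was at 147 to 186 FPKM in control libraries and 96.8 to 128 FPKM in knockout libraries (log2 change -0.65, adjusted p = 0.00200, limma), and its partner Ehmt1 at 29.99 to 35.8 and 24.2 to 28.0 FPKM (log2 change -0.30, adjusted p = 0.0184, limma). Setdb2 was called higher (log2 change 0.27, adjusted p = 0.0348, limma), but not after median-ratio scaling. With equal totals the log2 changes of Ehmt1 and Ehmt2 were 0.40 and 0.07 and neither was called.

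KDM4A, KDM4B and KDM4C remove methyl groups from trimethylated H3K9 and H3K36. Kdm4a and Kdm4b had the largest falls of the 10 genes, and Kdm4c was not called. Kdm4a (ENSMUSG00000033326, chromosome 4, 118136957 to 118180043, minus strand) was at 15.7, 15.4, 18.7 and 18.1 FPKM in control libraries 1 to 4 and 9.05, 5.82, 7.98 and 9.38 FPKM in knockout libraries 1 to 4. Its mean was 2.10-fold lower in the knockout, 17.0 ± 1.66 against 8.06 ± 1.61 FPKM (SD, n = 4 each), with a log2 change of -1.001 (95% interval -1.32 to -0.69). Kdm4b (ENSMUSG00000024201, chromosome 17, 56326062 to 56402870, plus strand) was at 5.81, 5.66, 6.21 and 5.51 FPKM in control libraries and 2.79, 1.86, 2.61 and 3.16 FPKM in knockout libraries, 2.22-fold lower, with a log2 change of -0.93 (95% interval -1.20 to -0.65). In both genes the groups were far apart, and with equal totals the log2 changes stayed below 0, at -0.34 and -0.35, without a call. Kdm4c (ENSMUSG00000028397, chromosome 4, 74242497 to 74405860, plus strand) was at 5.03, 3.89, 3.81 and 3.38 FPKM in control libraries and 6.41, 3.05, 4.70 and 5.69 FPKM in knockout libraries. The groups overlapped: knockout replicate 2 was the lowest of the 8 libraries, and knockout replicate 3 also lay below control replicate 1. The log2 change of Kdm4c was 0.22 (95% interval -0.20 to 0.64), and without knockout replicate 2 it was 0.39 and Kdm4c was called higher.

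Ratios within a library show the divergence free of library scaling. The ratio of Kdm4a to Kdm4c was 3.12, 3.95, 4.91 and 5.34 in control libraries 1 to 4 and 1.41, 1.91, 1.70 and 1.65 in knockout libraries 1 to 4. The ratio of Kdm4b to Kdm4c was 1.15, 1.45, 1.63 and 1.63 in control libraries and 0.436, 0.611, 0.556 and 0.555 in knockout libraries. Both ratios lay apart between the groups, in knockout replicate 2 as in the others, so that Kdm4b went from above Kdm4c in all 4 controls to below it in all 4 knockouts. The ratio of Kdm4a to Kdm4b, 2.93 ± 0.274 and 3.10 ± 0.116 (SD, n = 4 each), overlapped between the groups. The 6 entries of Kdm4a did not all move together. The protein-coding ones summed to 12.3 to 15.0 FPKM in control libraries and 5.26 to 8.23 FPKM in knockout libraries. Kdm4a-204 and the noncoding Kdm4a-206 were called lower (log2 changes -1.17 and -1.02) and Kdm4a-203 was not, with overlapping groups (log2 change -1.15), but Kdm4a-202, of the same coding length as Kdm4a-204, was at 1.27 to 4.63 and 0.979 to 4.14 FPKM (log2 change -0.02). In Kdm4b the full-length Kdm4b-201 and the 3′ entry Kdm4b-205, whose coding sequence begins at base 1590 of 3258, were both called lower, with log2 changes of -0.79 and -0.58.

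**Figure D3:**
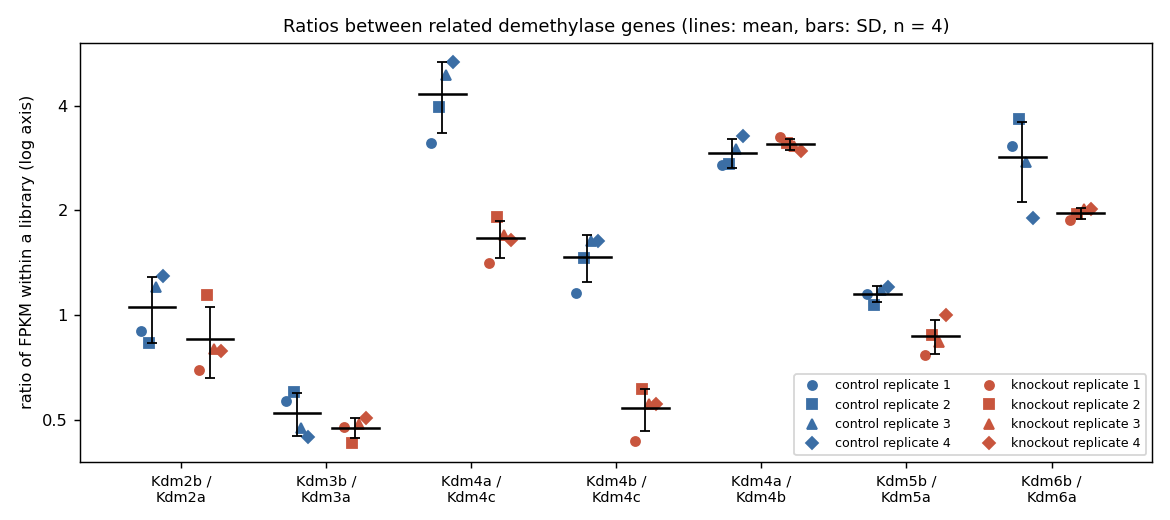
Ratios of FPKM between related demethylase genes within each library, on a log axis, with means and SD (n = 4 in each group). The ratios are not corrected for each library's trend with transcript length. Kdm4a to Kdm4c, Kdm4b to Kdm4c and Kdm5b to Kdm5a lie lower in all 4 knockouts than in any control, and the other 4 ratios overlap between the groups.

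The starts of Kdm4a and Kdm4c are shown because these related genes moved apart. The RefSeq windows (GRCm38.p6) are chr4:118179994-118180293 on the minus strand for Kdm4a and chr4:74251629-74251928 on the plus strand for Kdm4c, with capitals as above.
Kdm4a start: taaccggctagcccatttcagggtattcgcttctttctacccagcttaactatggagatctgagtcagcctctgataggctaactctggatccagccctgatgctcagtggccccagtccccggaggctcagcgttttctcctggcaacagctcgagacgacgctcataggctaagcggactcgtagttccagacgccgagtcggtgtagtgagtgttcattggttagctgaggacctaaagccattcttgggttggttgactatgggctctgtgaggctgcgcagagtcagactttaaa
Kdm4c start: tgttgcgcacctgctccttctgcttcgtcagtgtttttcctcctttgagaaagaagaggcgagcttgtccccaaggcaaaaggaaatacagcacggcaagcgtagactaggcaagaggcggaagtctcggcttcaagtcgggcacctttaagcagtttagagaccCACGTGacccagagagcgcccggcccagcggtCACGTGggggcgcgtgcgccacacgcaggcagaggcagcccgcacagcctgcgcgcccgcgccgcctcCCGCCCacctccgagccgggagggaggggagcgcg
The Kdm4a window holds 13 CG pairs and 0 matches to the GC box or the E-box. The Kdm4c window holds 28 CG pairs, 1 GC box match and 2 E-box matches. Of the 10 genes, 5 had a window in the table.

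KDM5A and KDM5B remove methyl groups from H3K4, the same lysine as KDM1A. Their genes were the most abundant of the 10 by summed FPKM, in Kdm5a largely through entries annotated without a coding sequence. Kdm5b (ENSMUSG00000042207, chromosome 1, 134560171 to 134635285, plus strand) was at 99.2, 90.0, 92.4 and 83.3 FPKM in control libraries 1 to 4 and 74.6, 58.7, 66.9 and 77.1 FPKM in knockout libraries 1 to 4. All knockouts were below the controls, 1.32-fold by the means, with a log2 change of -0.40 (95% interval -0.62 to -0.17). The call was lost after removal of the length trend (log2 change -0.15), and Kdm5b is among the longer genes here, with a mean entry length of 7503 bases weighted by FPKM. Its full-length entry Kdm5b-201 carried most of the sum and was called lower, from 68.4 to 79.4 FPKM in the controls to 52.0 to 59.3 FPKM in knockout libraries. Kdm5a (ENSMUSG00000030180, chromosome 6, 120364124 to 120444574, plus strand) was at 86.1, 84.5, 78.3 and 69.2 FPKM in control libraries and 96.8, 67.1, 80.1 and 77.1 FPKM in knockout libraries. The groups overlapped, with the highest and the lowest value both in the knockout, and the log2 change was 0.01 (95% interval -0.26 to 0.28).

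Much of the Kdm5a sum comes from short entries. Entries annotated without a coding sequence held 55.1% to 66.9% of it in control libraries and 58.3% to 73.2% in knockout libraries. The main remaining entry, which GENCODE M21 does not list, was at 28.3, 28.8, 24.3 and 23.5 FPKM in control libraries and 29.96, 17.9, 25.0 and 26.6 FPKM in knockout libraries. By gene sums the ratio of Kdm5b to Kdm5a was 1.15, 1.07, 1.18 and 1.20 in control libraries. In knockout libraries it was 0.770, 0.876, 0.835 and 0.9998, with the groups apart. The mean entry length weighted by FPKM was 7503 bases for Kdm5b and 1126 bases for the Kdm5a entries that GENCODE M21 lists. The ratio is not corrected for each library's trend with length. After removal of that trend the log2 changes of Kdm5b and Kdm5a were -0.15 and -0.12. Without knockout replicate 2 they were -0.20 and 0.03. The correction took the length of Kdm5a from its listed entries alone, so its value for Kdm5a leaves out the length of the unlisted entry. With Kdm5b-201 set against the unlisted entry of Kdm5a, a comparison added after seeing the data, the ratio was 2.50 to 3.02 in control libraries. It was 1.98 to 2.91 in knockout libraries, and the groups overlapped through knockout replicate 2.

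Of 10 partners of KDM5 enzymes in SIN3 deacetylase complexes, 1 was called higher and 1 lower, where 25.3% and 12.1% of all genes were. Gatad1, a reader of H3K4 methylation, was at 21.3 to 24.6 FPKM in control libraries and 30.4 to 36.5 FPKM in knockout libraries (log2 change 0.47, adjusted p = 0.00204, limma). Rbbp4, a histone chaperone, was at 83.0 to 95.7 and 67.8 to 76.3 FPKM (log2 change -0.27, adjusted p = 0.0205, limma), with a log2 change of 0.45 and no call at equal totals. Among 8 enzymes that add H3K4 methylation, 4 were called lower and 1 higher, where 12.1% and 25.3% of all genes were. Kmt2d, listed as Mll2, had the largest fall, from 10.8 to 17.3 FPKM in the controls to 3.14 to 8.99 FPKM in knockout libraries (log2 change -1.14, adjusted p = 0.00671, limma). Kmt2b, Kmt2c and Setd1a, whose products methylate H3K4 at promoters and enhancers, had log2 changes of -0.65, -0.61 and -0.53 and were called lower. With the length-trend correction Kmt2d, Kmt2c and Setd1a were still called lower, with log2 changes of -0.60, -0.31 and -0.35. The value of Kmt2b and the share of all genes called lower with that correction are not given here. Prdm9, the methyltransferase that places meiotic recombination sites, was called higher, at 1.56 to 3.28 and 3.11 to 6.36 FPKM (log2 change 0.83, adjusted p = 0.0119, limma). At equal totals Kmt2b, Kmt2c and Setd1a had log2 changes of 0.06 to 0.18, Kmt2d of -0.49, and none of these 4 was called.

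KDM6B removes methyl groups from H3K27, opposing the Polycomb methyltransferase EZH2. Kdm6b (ENSMUSG00000018476, chromosome 11, 69398508 to 69413675, minus strand) was at 21.2, 22.7, 19.0 and 16.1 FPKM in control libraries 1 to 4 and 12.8, 8.05, 12.1 and 12.7 FPKM in knockout libraries 1 to 4. All knockouts lay below the controls and 3 of them within 12.1 to 12.8 FPKM. The mean was 1.73-fold lower, with a log2 change of -0.75 (95% interval -1.11 to -0.40), and -0.07 at equal totals. The coding entry Kdm6b-201 was called lower (log2 change -0.82, SE 0.18), while the noncoding Kdm6b-202 was not (log2 change -0.39, SE 0.15). An exon of Kdm6b-201 overlaps Kdm6bos on the other strand. Ezh2 was called higher, at 28.2, 20.96, 24.1 and 27.5 FPKM in control libraries and 46.0, 35.3, 41.9 and 44.0 FPKM in knockout libraries (log2 change 0.71, adjusted p = 0.00142, limma), and it was called higher under each scaling tried. Its relative Ezh1 was not called (log2 change 0.01). Kdm6a, the X-linked relative of Kdm6b, was at 6.20 to 8.47 and 4.13 to 6.82 FPKM and was not called (log2 change -0.26, adjusted p = 0.184, limma). The ratio of Kdm6b to Kdm6a was 1.90 to 3.67 in control libraries and 1.87 to 2.02 in knockout libraries, overlapping through control replicate 4. From protein-coding entries alone it was 1.87 to 3.37 and 1.52 to 1.85, and the groups were apart.

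The subfamilies were set side by side as shares of a library's FPKM, which do not depend on library scaling. In the summed FPKM of the 10 genes, the share of the H3K36 enzymes was 25.7% ± 1.08 in control libraries and 25.6% ± 0.819 in knockout libraries (SD, n = 4 each), and that of the H3K9 enzymes 17.0% ± 1.01 and 16.3% ± 0.281, each with overlapping groups. The KDM4 share went from 7.08% ± 0.514 to 5.10% ± 0.666 and the H3K27 share from 5.21% ± 0.673 to 3.74% ± 0.417, and in both every knockout was below every control. Other genes of the subfamilies are not in these sums, such as Kdm3c, at means of 47.6 and 38.5 FPKM and not called. With them added the H3K9 share was 24.7% and 23.9% and overlapped. The KDM4 share was then 6.01% and 4.38% and the H3K27 share 7.24% and 6.33%, both still lower in every knockout. The H3K36 sum, at means of 97.5 and 77.5 FPKM in control and knockout libraries, contains the internal-start Kdm2b entry at 38.2 and 31.4 FPKM. That start's short protein is no demethylase, and the upstream-start Kdm2b entries made up 10.2 and 2.98 FPKM. The H3K4 share, 45.0% ± 1.80 and 49.3% ± 0.257, lay higher in every knockout, but it contains the noncoding Kdm5a entries. With annotated protein-coding entries alone, which leaves Kdm5a out, it was 29.4% ± 1.71 and 29.5% ± 0.639 and overlapped, while the KDM4 and H3K27 shares stayed apart. In the controls the order of levels was Kdm5b, Kdm5a, Kdm2b, Kdm2a, Kdm3a, Kdm3b, Kdm6b, Kdm4a, Kdm4b and Kdm4c. The ranges of neighbours in that order were apart between Kdm5a and Kdm2b, Kdm3a and Kdm3b, Kdm4a and Kdm4b, and Kdm4b and Kdm4c, and overlapped elsewhere. In the knockouts Kdm5a stood above Kdm5b, Kdm2a above Kdm2b and Kdm4c above Kdm4b, each pair with overlapping ranges. Kdm5a is placed in both orders with its noncoding entries. Its main remaining entry averaged 26.2 FPKM in control and 24.8 FPKM in knockout libraries.

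Other genes with a JmjC domain were counted by the same rule. Of the 20 listed, 18 were tested, 1 was called lower, 1 higher and 16 neither, against 12.1% lower and 25.3% higher over all genes, and their median log2 change was -0.05. With other scalings of the libraries the count rested on the setting. After median-ratio scaling 4 were called lower, where 20.6% of all genes were. At equal totals 11 were called higher, where 71.2% of all genes were. Whether this differs from the 10 genes was not tested. Jarid2, which lacks demethylase activity and works with Polycomb, was at 77.3, 67.6, 58.0 and 54.4 FPKM in control libraries and 54.1, 33.9, 43.5 and 44.2 FPKM in knockout libraries (log2 change -0.55, adjusted p = 0.0202, limma). Tyw5, a transfer RNA hydroxylase, was called higher, at 14.2 to 16.9 and 19.7 to 26.4 FPKM (log2 change 0.47, adjusted p = 0.00797, limma). Jarid2 had a log2 change of 0.17 and no call at equal totals, while Tyw5 was called higher under every scaling tried. The Jarid2 call was also lost without control replicate 1 and without control replicate 2. The X-linked Kdm5c and its Y-linked relative Kdm5d had log2 changes of -0.07 and 0.03, and Uty, the Y-linked relative of Kdm6a, of 0.02. Kdm4d, known for its expression in later male germ cells, was at 0.330 to 0.543 FPKM in control libraries and 0.540 to 0.790 FPKM in knockout libraries and was below the filter, as was Hr. Kdm1b, the other flavin demethylase, was called lower, at 28.9 to 35.2 and 23.5 to 27.9 FPKM (log2 change -0.31, adjusted p = 0.0205, limma). It was not called with the length-trend correction (log2 change -0.20) or at equal totals, where its log2 change was 0.39.

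**Figure D4:**
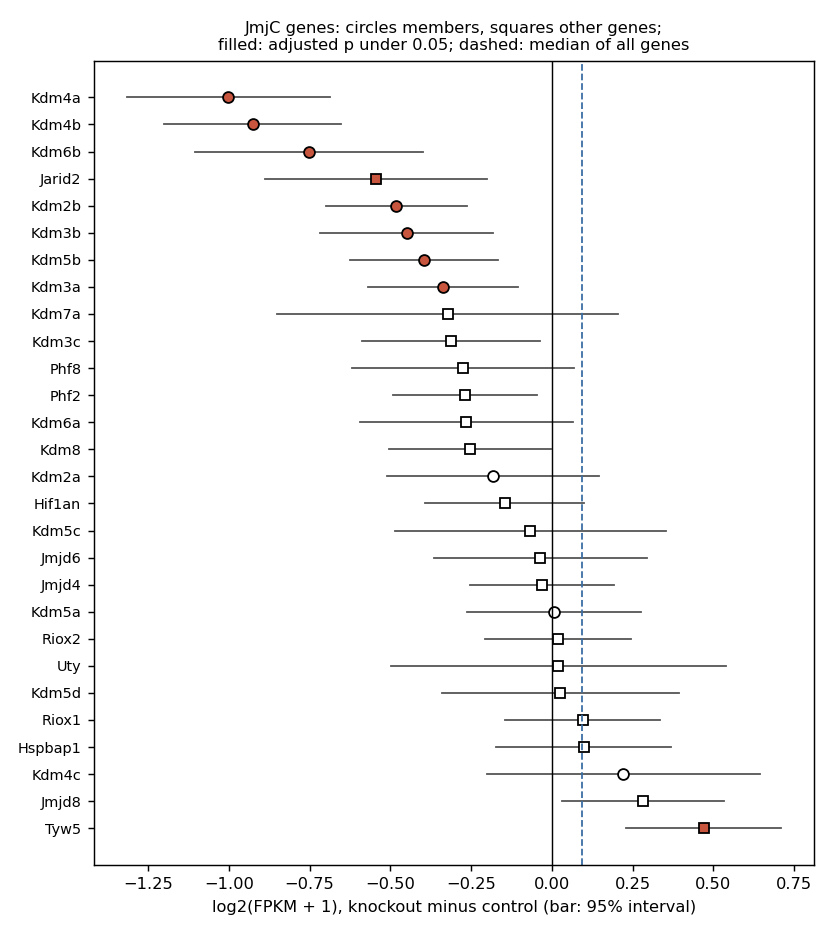
Log2 change of FPKM + 1, knockout minus control, for the 28 JmjC genes tested, with 95% intervals from limma, as deposited; circles are the 10 genes described here, squares the others, filled symbols are called and the dashed line is the median of all genes at 0.09. Kdm4a, Kdm4b and Kdm6b lie furthest to the left, and at equal totals 0 of the 28 are called lower.

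Genes tied to the cofactors of these enzymes were counted in the same way. Of 14 genes that make or use up 2-oxoglutarate and its relatives, 4 were called higher and 0 lower, a share near the 25.3% called higher over all genes. Among those called higher were Sdhd, Idh3g and Idh1, with log2 changes of 0.61, 0.39 and 0.29. Sdhd, a subunit of succinate dehydrogenase, was at 50.6 to 57.9 FPKM in control libraries and 76.4 to 102 FPKM in knockout libraries (adjusted p = 0.00198, limma). After median-ratio scaling 2 of the 14, Sdhd and Idh3g, were called higher and 1, Idh3a, lower. Of 10 genes known to respond to low oxygen, 4 were called higher and 3 lower, where 25.3% and 12.1% of all genes were. Pgk1, Ldha, Ankrd37 and P4ha1 had log2 changes of 0.47, 0.79, 0.74 and 0.55. Pdk1, Vegfa and Slc2a1 had log2 changes of -0.63, -0.69 and -0.46, so the list did not move one way. Of 7 enzymes that add H3K36 methylation, 1 was called lower and 0 higher, where 12.1% and 25.3% of all genes were. It was Nsd2 (listed as Whsc1), with overlapping groups (log2 change -0.55, adjusted p = 0.0491, limma). Nsd2 was not called without knockout replicate 2 (log2 change -0.38), after quantile normalization, with small RNAs removed, or at equal totals, where its log2 change was 0.16.

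**Figure D5:**
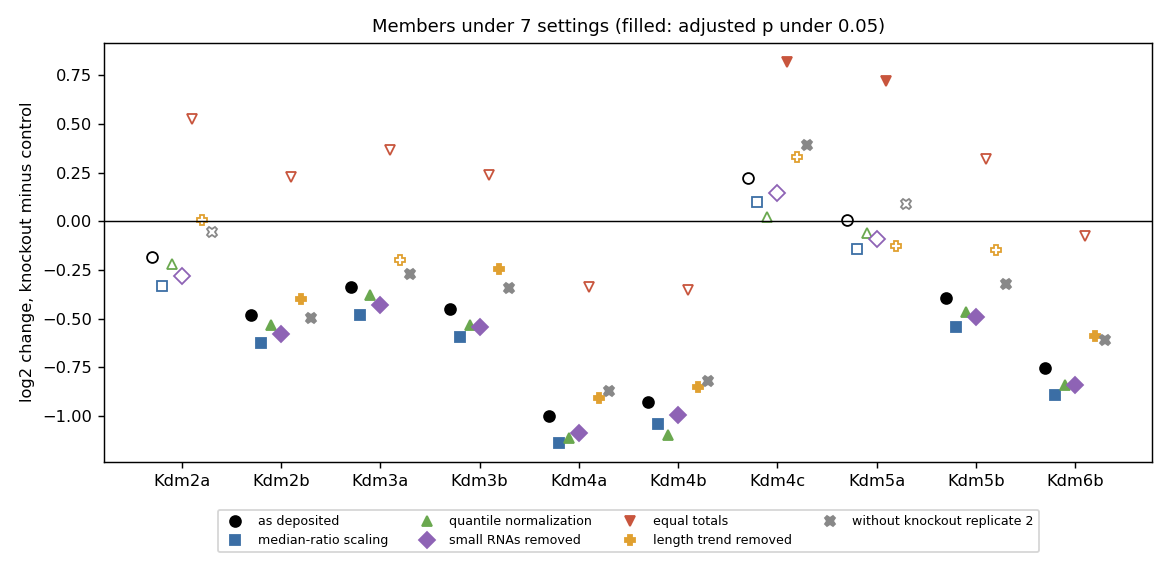
Log2 change, knockout minus control, of each of the 10 genes under 7 settings, with filled symbols where the adjusted p (limma) was under 0.05. Kdm4a, Kdm4b and Kdm6b are below 0 under all 7 settings, without a call at equal totals, where the median of all genes moved from 0.09 to 0.74.

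Of 2716 genes over 4000 bases 20.3% were called lower, against 12.1% of all genes tested, and 4 of the 6 demethylase genes over that length were. After removal of each library's length trend, added after seeing the data, Kdm2b, Kdm3b, Kdm4a, Kdm4b and Kdm6b were still called lower, with log2 changes of -0.40, -0.24, -0.91, -0.85 and -0.59. Kdm3a and Kdm5b were not called there. The median log2 change with that correction was -0.22 over the 10 genes and 0.10 over all genes tested. The 20.3% and 12.1% are shares before the correction, and the share of all genes called lower after it is not given here.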

How the data were processed

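RNA from sorted spermatogonia was measured in 8 libraries. The authors deposited FPKM for 45550 transcript entries, made with TopHat, Bowtie, Cufflinks and Cuffdiff on mm10, per the submitters' processing notes; versions, annotation release and strand setting have no statement in the sources used here. Since FPKM are no counts, a count model was not run; sequencing depth was not used. Entries were summed to 17589 genes. The 13483 genes that averaged at least 1 FPKM were tested on log2(FPKM + 1) by limma 3.58.1 in R 4.3.3 (intensity trend, group as the only term, two-sided, Benjamini-Hochberg over all genes), and entries likewise; log2 changes understate the change of low genes, folds are ratios of mean FPKM, and intervals are 95%. Gene types, entry structures and positions came from GENCODE M21 (GRCm38), which lists 42 of the 43 family entries. The scripts were tested on simulated data, where diffSplice, which pools the spread over the entries of a gene, made false calls. The labels do not say whether replicate numbers pair the libraries. Same-numbered deviations from the group means correlated at 0.22, -0.12, -0.13 and -0.09. These values cannot tell whether libraries were paired, since the deviations also follow each library's trend with transcript length.

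The 10 genes, the other lists (other JmjC genes, flavin demethylases, methyltransferases of each lysine, KDM2B and KDM5 partners, 2-oxoglutarate and low-oxygen genes, cell type markers) and the tests were chosen with earlier results of these data known. The 10 genes' adjusted p-values are therefore not printed. Named were these genes and their entries, Kdm1a and Kdm1b, the tested JmjC genes, and up to 4 called genes a list by adjusted p; Pcgf1, Prdm9, Ldha, Ankrd37, Slc2a1, Kdm4d, Hr and Ezh1 fall outside it and were chosen once their values were known. Alternatives covered pseudocount, filters, scaling, small RNAs, limma settings, the replicate block, libraries left out and thresholds; a length-trend correction, a per-entry ratio test and ratios from other entries were added after seeing the data. For 1 listed gene no values are reported here.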

Additional observations from a re-analysis of the deposited data

Results flagged for a closer look

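Values were looked at again where, in a group of 4 libraries, the highest or lowest stood far from the other 3 (Dixon's test at the 95% level). Of 78 groups tested 7 were picked out, and chance alone picks about 1 in 20.

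Kdm6b was at 8.05 FPKM in knockout replicate 2, against 12.1 to 12.8 in the other knockouts. Kdm1a was at 92.0 FPKM in control replicate 3, against 48.1 to 54.0 in the other controls. Kdm2a-211, an entry marked for nonsense-mediated decay, was at 1.73 FPKM in control replicate 4, against 3.65 to 3.98. The upstream-start entry Kdm2b-203 was at 3.77 FPKM in control replicate 2, against 6.72 to 7.16, still above its highest knockout value of 2.86. Kdm2b-202 was at 1.01 FPKM in knockout replicate 1 and at no more than 0.120 in the other knockouts. The retained-intron entry Kdm5a-205 was at 32.8 FPKM in control replicate 3, against 24.5 to 25.3. Kdm5a-204, also marked for nonsense-mediated decay, was at 9.07 FPKM in knockout replicate 1, against at most 1.52 in the other knockouts.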

How the results depend on the processing

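FPKM carry no counts, so the precision of low entries is unknown, and upstream Kdm2b entries near 1 FPKM are estimates split among overlapping transcripts. The cause of each shift below was not tested unless the setting itself leaves fewer samples or genes.

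Of the 10 genes, 7 were called lower in the deposited values, 4 at an adjusted p under 0.01 and 0 at equal totals; 2 were called higher at equal totals, and 1, Kdm4c, without knockout replicate 2, with or without the length-trend correction. Log2 changes changed sign at equal totals for Kdm2a (0.53), Kdm2b (0.23), Kdm3a (0.37), Kdm3b (0.24) and Kdm5b (0.32). Kdm2a, never called, was also above 0 with its most abundant entry alone (0.046), with the length-trend correction (0.0090) and with that correction and without knockout replicate 2 (0.034). Kdm5a, at 0.01 in the deposited values, was below 0 after median-ratio scaling (-0.14), quantile normalization (-0.062), removal of small RNAs (-0.090) and the length-trend correction (-0.12), and with a library left out it lay on either side of 0, from -0.086 to 0.088. Kdm2b was not called from its most abundant entry alone (-0.27), nor Kdm3a, Kdm3b and Kdm5b at an adjusted p under 0.01. Kdm5b was also not called with the length-trend correction and without knockout replicate 2 (-0.20).

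Other JmjC genes called higher numbered 11 at equal totals, 0 from protein-coding entries, 2 with the length-trend correction and 3 with it and without knockout replicate 2. Those called lower numbered 4 with median-ratio scaling, 4 with quantile normalization, 0 at equal totals, 2 with small RNAs removed, 2 without the intensity trend, 2 from protein-coding entries, 0 at an adjusted p under 0.01, and 0 to 2 with a library left out. Of the 67 methyltransferase, partner, cofactor and low-oxygen genes, 14 were called higher and 11 lower as deposited. The same counts were 9 and 21 with median-ratio scaling, 9 and 17 with quantile normalization, 39 and 0 at equal totals, and 8 and 7 at an adjusted p under 0.01; 9 were called higher with small RNAs removed. Over all genes, 3417 were called higher and 1635 lower; these became 9808 and 147 at equal totals and 2087 and 848 at an adjusted p under 0.01, with 2164 higher at a mean of at least 5 FPKM, and 2769 and 2648 lower after median-ratio scaling and quantile normalization.

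Family entries called higher numbered 1 as deposited, 4 at equal totals and 0 with a filter of 0.1 or 5 FPKM, median-ratio scaling or an adjusted p under 0.01, and 0 to 1 with a library left out. Entries called lower numbered 9, and 4 with a filter of 5 FPKM, 1 at equal totals and 3 at an adjusted p under 0.01. Entries called by diffSplice numbered 1, but 0 with a filter of 5 FPKM, at equal totals, at an adjusted p under 0.01 or by the per-entry ratio, and 0 to 3 with a library left out. Kdm2b-201 itself was also not called by diffSplice with a pseudocount of 0.1 (2.23) or a filter of 0.1 FPKM (0.39), the latter with more entries in the comparison. With the replicate number as a block, which the labels do not give as a pairing, the entries called were 0 higher and 5 lower. The 7 genes were still called lower there, and diffSplice called 1 entry. From the most abundant entry of each gene, the log2 difference in the ratio of Kdm4a to Kdm4c was -1.90 against -1.36, of Kdm4a to Kdm4b -0.30 against 0.09, and of Kdm5b to Kdm5a -0.75 against -0.41.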
